A study of Mus musculus with 8 samples.

Results

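The signalling genes examined were Rara, Il1r1, Npffr1, Pam and Anks6, 5 genes that each carried a peak of the PEG3 antibody in wild-type mouse embryonic fibroblasts (MEFs) and none in Peg3 knockout MEFs. They were chosen by the peak lists themselves: a peak in the wild-type PEG3 list inside the gene, and no overlapping peak in the knockout PEG3 list. Within the genes and 10 kb on either side lay 5 peaks, 1 per gene, of 581 in the 4 lists together and of the 152 in the wild-type PEG3 list. The MEFs, primary fibroblasts of C57BL/6 embryos aged 14.5 days, were wild type or Peg3 knockout and were profiled by ChIP-seq, in which DNA bound by an antibody's target is precipitated and sequenced. For both genotypes there was 1 PEG3 library and 1 library for H3K9me3, histone H3 trimethylated at lysine 9, and 1 input served both antibodies of a genotype. The labels used here name neither the knockout allele nor the number of embryos. With 1 library per group there was no replicate error, and no test between genotypes was made.

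Peg3 is an imprinted gene whose protein carries a row of zinc fingers and binds DNA. The 5 genes act at different steps of cell signalling and form no single pathway. Rara encodes retinoic acid receptor alpha, a nuclear receptor that pairs with an RXR on DNA and turns genes on when retinoic acid is bound. Il1r1 encodes the receptor chain that binds interleukin 1 and signals through MYD88 and IRAK kinases. Npffr1 encodes a G protein-coupled receptor for RFamide neuropeptides. Pam encodes the enzyme that amidates the C-terminus of peptide hormones, the last step in making many neuropeptides active. Anks6 encodes an ankyrin-repeat protein of the inversin compartment at the base of the primary cilium, where it binds the kinase NEK8, and its loss gives cystic kidneys.

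The peak lists set the limits of what can be said. A site outside a list has no value in these files, and its height is unknown and not 0. After removal of duplicates 21396407 tags remained in the PEG3 library of wild type and 16986250 in that of knockout, a depth ratio of 0.794, and the H3K9me3 libraries kept 26295696 in wild type and 27289192 in knockout. At Peg3 itself the antibody gave 13 peaks in wild type and 19 in the library labelled knockout, so the lists do not show whether the signal of that library was free of PEG3. Peaks in wild type alone were 90 of the 152, or 59.2%. The 5 genes belong to these 90 by choice. In the other direction, 98 of the 163 peaks in the knockout PEG3 list had no overlapping wild-type peak, so being listed in 1 genotype alone was common both ways. Of 21900 protein-coding genes, 98 had a PEG3 peak of wild type alone within 10 kb, or 0.447%.

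The reference sequence under the 5 peaks was not analysed here. The 250 bases before the start site nearest to the Rara peak and before the single Npffr1 start site are shown, 1 for each of the 2 genes whose peaks lay closest to a listed start site of their own. They are RefSeq sequences of build GRCm38.p6, the assembly also called mm10, plus strand, chr11:98937446-98937695 and chr10:61595045-61595294, and capitals mark the GC box, GGGCGG on either strand, a binding sequence of SP-family factors. No peak of the 4 lists lay in either window.
Rara: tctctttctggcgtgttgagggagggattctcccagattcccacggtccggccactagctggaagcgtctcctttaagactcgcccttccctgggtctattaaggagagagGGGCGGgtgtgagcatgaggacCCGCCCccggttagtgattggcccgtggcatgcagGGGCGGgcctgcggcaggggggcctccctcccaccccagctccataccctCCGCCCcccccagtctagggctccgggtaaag
Npffr1: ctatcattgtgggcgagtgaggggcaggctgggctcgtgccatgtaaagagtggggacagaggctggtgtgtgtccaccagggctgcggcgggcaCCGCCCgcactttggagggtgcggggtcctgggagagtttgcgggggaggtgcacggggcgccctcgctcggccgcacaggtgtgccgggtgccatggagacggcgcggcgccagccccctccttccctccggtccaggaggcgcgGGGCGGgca

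The Rara window held 13 CpG dinucleotides and 4 GC boxes, and the Npffr1 window 22 CpG dinucleotides and 2 GC boxes. The window of the Rara start site 3.59 kb from the summit, which is not shown, held 2 CpG dinucleotides and 0 GC boxes. Among 32851 windows of the same length before listed start sites, 32.7% held a GC box, the median window held 6 CpG dinucleotides, and 31.5% and 14.8% held at least as many as the Rara and the Npffr1 window. The RefSeq table gave 9 start sites for 4 of the genes, with 2 to 29 CpG dinucleotides before them, the most before a Pam start site. The retinoic acid receptor half-site AGGTCA, searched on both strands, was in 0 of the 9 windows, including the 4 of Rara, against 14.0% of all windows. Some of the Rara and Pam windows overlap each other, and only this exact sequence was searched. With so few windows, the count does not show that such sites are lacking.

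Rara, the nuclear receptor, carried the widest of the 5 peaks. It spanned 314 bp (chr11:98935975-98936288) inside the annotated gene (chr11:98927800-98974942) and held 26 fragments over its summit (95% Poisson interval 17.0 to 38.1), an 8.96-fold enrichment over the local input with a −log10 q of 15.2. The summit lay 8.32 kb inside the gene's lower-coordinate end and 1573 bp upstream of the nearest listed Rara start site. Rara is on the plus strand, so the summit lay downstream of that gene end, for which no start site is listed. The other 3 start sites lay 1595 bp, 3.59 kb and 28.7 kb downstream of the summit, so the peak was upstream of every listed start site of the gene while inside its longest annotated extent. A predicted protein-coding gene, Gm46294, overlaps Rara, and its nearer end lay 975 bp beyond the peak. The knockout PEG3 list had 0 rows in Rara or within 10 kb. The nearest rows of either genotype lay 139 kb away in Msl1, with 28 fragments in wild type and 15 in knockout.

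Anks6, the cilium protein, had the highest fold of all 90 peaks of wild type alone. The peak (chr4:47056786-47057063, 278 bp) held 22 fragments (13.8 to 33.3), a 10.5-fold enrichment with a −log10 q of 15.7. Its summit lay 398 bp inside the upper-coordinate end of the gene (chr4:47015365-47057327), the only one of the 5 within 1 kb of a gene end. No start site or strand was used for Anks6, so whether this end is the one where transcription starts was not determined here. Chromosome 4 held 3 wild-type PEG3 peaks and 0 knockout ones.

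The other 3 peaks lay deep in gene bodies. In Npffr1 (chr10:61595295-61629464) the peak spanned 194 bp (chr10:61602751-61602944), 7.55 kb downstream of the start site, with 29 fragments (19.4 to 41.6), the most of the 5, and an 8.01-fold enrichment. In Il1r1 (chr1:40222480-40316201) it spanned 227 bp (chr1:40275820-40276046), 50.9 kb downstream of one start site and 9.37 kb downstream of the other, with 22 fragments (13.8 to 33.3) and a 7.63-fold enrichment. In Pam (chr1:97821091-98095853), the longest of the genes at 275 kb, it spanned 176 bp (chr1:98006151-98006326), 89.4 kb downstream of both start sites on the minus strand, with 19 fragments (11.4 to 29.7), the fewest of the 5, and an 8.21-fold enrichment. The −log10 q was 14.9 in Npffr1, 10.9 in Il1r1 and 10.5 in Pam. Exons and introns were not separated, since the gene table used here gives the extent of a gene only. The counting intervals of all 5 heights overlapped, so no order of height among the genes could be told.

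**Figure D1:**
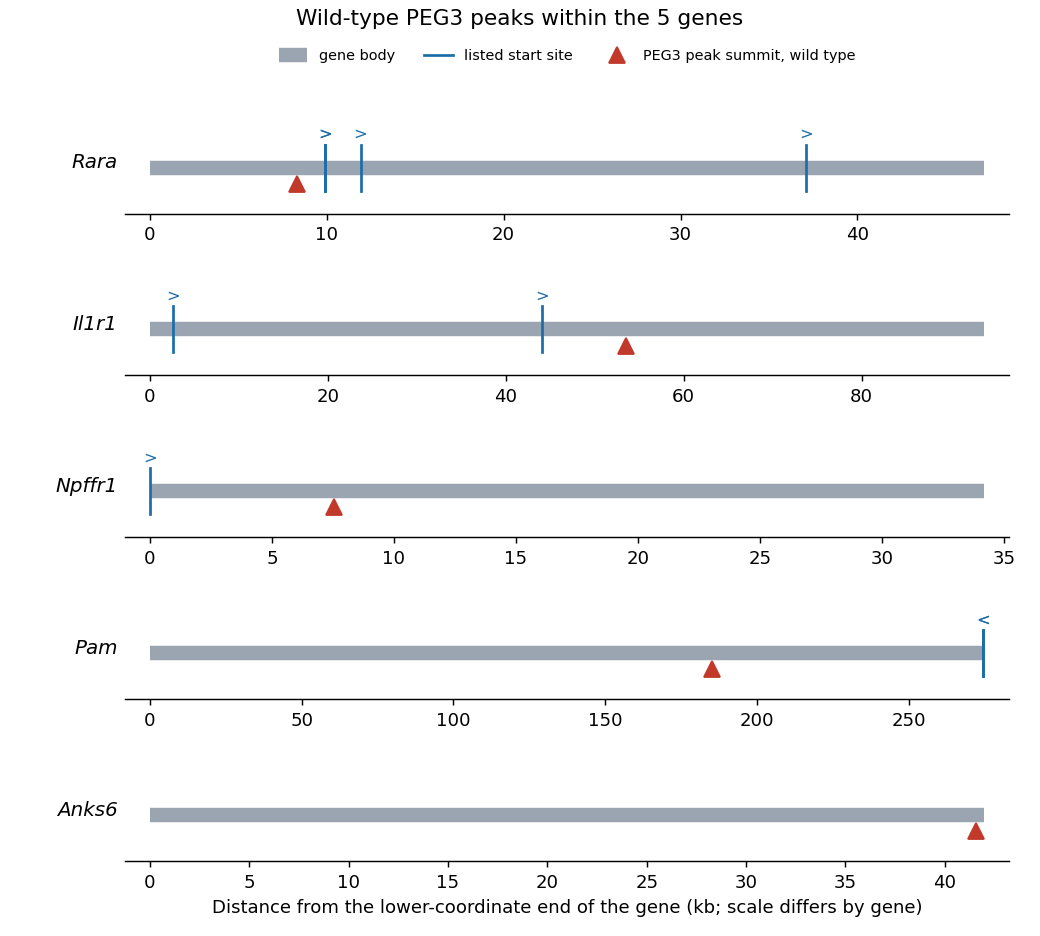
Each panel plots 1 gene body (grey bar, kb from its lower-coordinate end on a scale of its own), the listed start sites (blue lines, with the direction of transcription) and the summit of the wild-type PEG3 peak (red triangle). The Rara summit sits 1573 bp upstream of the nearest start site, the Anks6 summit 398 bp from a gene end, and the other 3 lie 7.55 to 89.4 kb downstream of a start site.

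All 5 summits lay in the body of a protein-coding gene, as the choice of the genes required, against 53 of the 90 peaks of wild type alone. Of the 4 peaks in genes with a start site used here, 1, the Rara peak, lay within 2 kb of a listed start site of any gene, and 3 lay within 10 kb. The Anks6 peak could not be counted in this way. Of the 90 peaks 33 lay within 2 kb, or 36.7% (exact Clopper-Pearson 95% interval 26.8% to 47.5%), and 54 within 10 kb, and peaks at other genes with no start site used may be missed there too. With so few peaks, such counts do not show a position that is particular to these genes.

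The folds of the 5 peaks followed the input background as well as the height. The local input background, on the scale of the ChIP library, was 1.19 fragments in Anks6, 1.44 in Pam, 2.01 in Rara and in Il1r1 and 2.75 in Npffr1. To within 0.01 tags, these values equal 13, 22, 22 and 30 input tags per 1 kb in Anks6, Rara, Il1r1 and Npffr1, or equally 130, 220, 220 and 300 per 10 kb, and 157 tags per 10 kb in Pam. Anks6 and Il1r1 had the same 22 fragments, and their folds of 10.5 and 7.63 therefore differed by the background alone. Which window set the background is not recorded. The 10 kb reading needs an exact multiple of 10 tags in each of Anks6, Rara, Il1r1 and Npffr1, and the 1 kb reading needs no such match. Per 1 kb, the counting intervals of 13 and 22 tags, 6.92 to 22.2 and 13.8 to 33.3, overlap. Per 10 kb, those of 130 and 220 tags, 109 to 154 and 192 to 251, do not. Npffr1 had the most fragments and only the fourth highest fold of the 5. The Anks6 background of 1.1902 fragments lay just above 1.18996, the genome-wide floor below which the caller lets no background go. The top fold of Anks6 thus rests on nearly the lowest background possible in this library.

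Within the wild-type PEG3 list the 5 peaks can be placed by height, width and fold, given here as a description. Their median was 22 fragments and 227 bp, against 21 fragments and 156 bp for the other 85 peaks of wild type alone and 32 fragments and 229 bp for the 62 peaks shared with knockout. By fold they held places 1 (Anks6), 3 (Rara), 5 (Pam), 6 (Npffr1) and 8 (Il1r1) among the 90, and places 21, 28, 33, 34 and 37 among all 152. The peaks between them in that order lay on chromosome 16 (9.34-fold, 33 fragments), near Msl3 (8.33-fold) and near H19 (7.69-fold). The 5 genes were picked, with earlier results known, from the 98 protein-coding genes with a peak of wild type alone within 10 kb. The rule gives no reason for taking these 5, so their places by fold are not shown to be a trait of signalling genes.

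**Figure D2:**
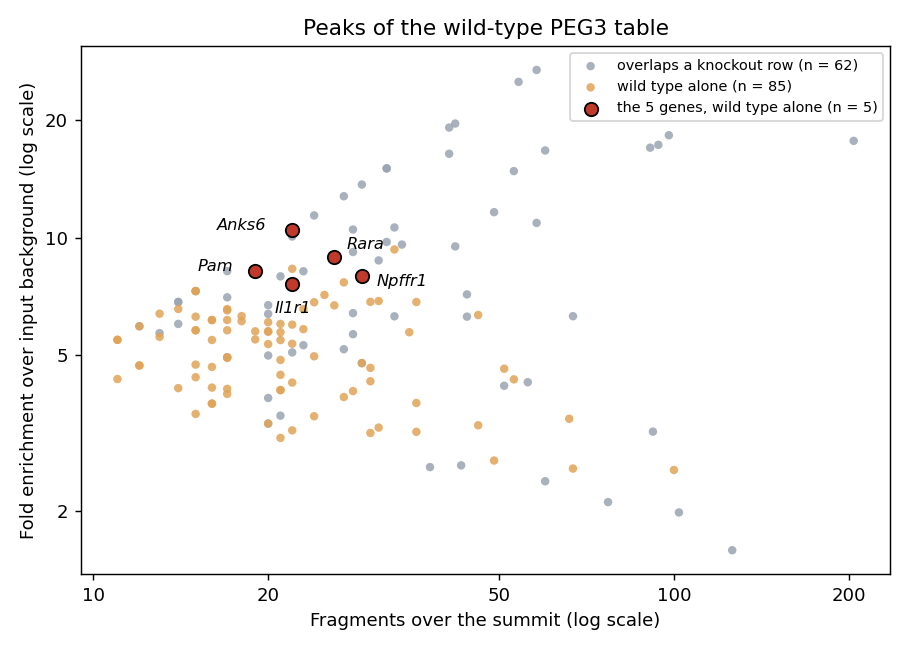
Each point is 1 peak of the wild-type PEG3 list, placed by its fragments over the summit (x axis, log scale) and its fold over the input background (y axis, log scale), in grey where a knockout peak overlaps, in orange where none does, and in red for the 5 genes. The red points sit between 19 and 29 fragments and between 7.63-fold and 10.5-fold, with grey points of like height and fold around them.

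The next question was whether the shallower knockout library would have listed these peaks. The lowest −log10 p in the knockout PEG3 list was 6.48, and this was taken as the bar. With the wild-type background carried over and scaled to the knockout depth, a summit needed 9 fragments in Anks6, 10 in Pam, 11 in Rara and Il1r1 and 13 in Npffr1 to reach it. Over all listed peaks the median background was 6.42 fragments in the knockout and 2.66 in the wild-type PEG3 list. The knockout list holds none of the 5 sites, so their background there is unknown, and a higher one would lower the probabilities below. At the depth-normalised height seen in wild type, the knockout library would have held 17.5 fragments in Anks6, 15.1 in Pam, 20.6 in Rara, 17.5 in Il1r1 and 23.0 in Npffr1, above the bar in each gene. The Poisson probability that such a count reaches the bar was 99.2% for Rara, 99.1% for Npffr1, 99.0% for Anks6, 96.1% for Il1r1 and 93.3% for Pam. Equal height would thus have passed the bar in each gene more often than not, with 4.87 of the 5 peaks expected. At the lower bound of the wild-type counting interval the probabilities ranged from 42.3% (Pam) to 78.8% (Rara) and 3.27 of the 5 were expected.

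Over the whole list the calculation expected more knockout peaks than were listed. Of the 152 wild-type peaks 54 had a probability of at least 95%, among them those in Rara, Npffr1, Anks6 and Il1r1, and 53.6 of the 54 were expected in the knockout list. The list held 36 of them, and 18, or 33.3%, had no overlapping knockout peak. Of the other 98 wild-type peaks, among them the one in Pam, 67.5 were expected and 26 were listed, or 26.5%. The calculation treats the summit alone, whereas the peak caller also asks for a minimum width, and it takes a height chosen for passing a threshold as the true one. Numbers that run high for such reasons and a lower signal in the knockout library cannot be told apart from these lists.

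An unlisted peak does not mean an empty site. Below the bar the knockout library could have held up to 10 fragments in Rara, 10 in Il1r1, 12 in Npffr1, 9 in Pam and 8 in Anks6 if its input background was the one carried over. A knockout site just below the bar would have had a height, as fragments per kept tag, of 0.484 times that of wild type (exact conditional 95% interval 0.208 to 1.04) in Rara, 0.458 (0.176 to 1.07) in Anks6 and 0.521 (0.242 to 1.05) in Npffr1. In Il1r1 it would have been 0.573 (0.242 to 1.26) and in Pam 0.597 (0.238 to 1.38). All 5 intervals reach above 1, so at this depth a count just below the bar was not distinguishable from the wild-type height by counting error alone.

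**Figure D3:**
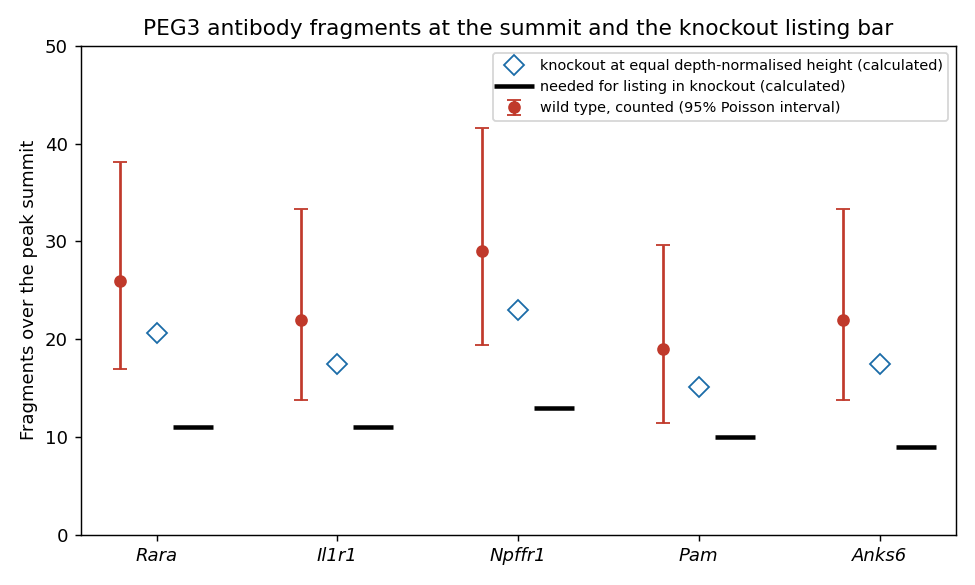
For each gene the red point gives the fragments counted over the wild-type summit with the 95% Poisson interval, the open blue diamond the fragments calculated for the knockout library at equal depth-normalised height, and the black bar the number needed for listing there. The diamonds sit at 15.1 to 23.0 fragments, above bars at 9 to 13, and the lower ends of the wild-type intervals at 11.4 to 19.4.

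H3K9me3, a mark of silent chromatin that took no part in the choice of the genes, was not listed at any of them. The H3K9me3 lists were short, with 173 rows in wild type and 93 in knockout over the whole genome. Both held 0 rows within 10 kb of the 5 genes. Over all protein-coding genes 0.247% had a wild-type and 0.128% a knockout H3K9me3 row within 10 kb, so 0 of 5 is near the background and says nothing particular of these genes. The nearest H3K9me3 rows lay 3.36 Mb from the Npffr1 peak in both genotypes, 9.85 Mb from the Rara peak in both, and 12.9 Mb or more from the other 3. With the same background, an H3K9me3 summit needed 10 (Anks6) to 16 (Npffr1) fragments to be listed in wild type and 12 to 17 in knockout, and lower levels of the mark were not detectable in these lists.

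The pathways around the 5 genes held no further peaks. The lists comprised 23 genes of retinoic acid signalling, 23 of interleukin 1 family signalling, 10 of RFamide peptides and their receptors, 17 of peptide hormone processing and 16 of the inversin compartment and nephronophthisis, 89 in all with the 5 genes among them. Of the other 84 genes, 0 had a row of any of the 4 lists within 10 kb, where 0.954% of all protein-coding genes had one, a share at which 0 of 84 is near the background. Thus Rarb, Rarg and the RXR genes, the other interleukin 1 family receptors, Npffr2, the prohormone convertases Pcsk1 and Pcsk2, and the Anks6 partners Nek8 and Invs had none. Within 50 kb, Qrfp, which encodes an RFamide peptide, had a wild-type PEG3 peak 46.2 kb away (4.87-fold, 21 fragments), and Il1rl2, the next receptor gene of the interleukin 1 cluster, lay 48.5 kb from the Il1r1 peak itself.

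The peaks of wild type alone most like the 5 in fold and fragments, by distance on the log2 scale from their medians, lay 183 bp outside Msl3 (8.33-fold, 22 fragments), 196 bp outside Pds5a (7.14-fold, 25 fragments), in Kmt2d (6.84-fold, 24 fragments), 2409 bp outside H19 (7.69-fold, 27 fragments) and in Ephb6 (6.57-fold, 23 fragments). Ephb6 encodes an ephrin receptor, Kmt2d a histone H3 lysine 4 methyltransferase and Pds5a a regulator of cohesin. Their listing probabilities in knockout ran from 91.7% (Ephb6) to 98.0% (H19), within the range of the 5 genes apart from Ephb6.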

How the data were processed

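Peaks were called by the authors with MACS2 2.2.6 at a q of 0.05 in each ChIP library against the input of its genotype, keeping 1 tag per position, per the file headers; Bowtie2, SAMtools and mm10 are named in the submitters' processing notes. The deposited tables give the pileup signal at the summit, the fold enrichment (ratio of pileup to local background, 1 added to both) and −log10 p and −log10 q. The header names of the last pair were lost in the deposited tables; recomputing −log10 p from pileup and fold left a difference of at most 0.00335. The genes, lists and rules were chosen with earlier results of these data known. Gene extents and start sites came from RefSeq (GRCm38.p6). Rows overlapping a gene or 10 kb on either side were taken, and an overlap of 1 bp counted as shared. Planned promoter, exon and intron classes were replaced by distances to start sites. The listing calculation used the Poisson tail of the caller, with no background below its genome-wide floor. A check on simulated Poisson counts covered its arithmetic only, not the carried-over background or the use of a chosen height. All intervals are 95% intervals and cover counting error only. Named were the 5 genes, list genes with a row within 10 kb and the 5 most similar peaks; Qrfp, Il1rl2 and Msl1, and the list genes named as having no peak, were added after the values were seen. Python 3.11.15, NumPy 2.4.6, SciPy 1.17.1 and matplotlib 3.10.9 were used.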

Additional observations from a re-analysis of the deposited data

How the results depend on the processing

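With 1 library per group, none could be left out. The count of 5 peaks was the same with flanks of 0, 5 and 50 kb, when a knockout row within 1000 bp or 10 kb counted as shared, and at a wild-type −log10 q of at least 2 or 3; H3K9me3 rows stayed at 0 under the 3 flanks. The expected number of peaks passing in knockout ranged from 3.27 to 4.94 of 5 over the alternatives, against 4.87. No alternative used a background as high as the median of the knockout PEG3 list, 6.42 fragments. The range therefore does not cover the full dependence on the unknown knockout background. The number of peaks with a probability of at least 95%, 4 as reported, was 2 with the background raised 1.5-fold (Rara and Anks6) and 0 with wild-type heights at the lower bound of their intervals, where fewer fragments are assumed. It was 3 with a correction for fragment length and 3 when the counting error of both libraries was included, an alternative chosen after seeing the data. A background lowered 1.5-fold, or set to the lowest of the knockout list, gave 5, and a bar at a q of 0.01 gave 4. Pathway genes with a row, 5 within 10 kb, numbered 5 without a flank and 7 within 50 kb. Counts of 19 to 29 fragments limit the heights.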
